A study of Mus musculus with 35 samples.

Results

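Genes of the HIF pathway were followed here through 35 single cells labelled as mouse peritoneal macrophages, with RNA sequenced by a Smart-seq2 protocol. The 10 genes were chosen by name and are Hif1a, Vegfa, Pdk1, Slc2a1, Egln1, Egln3, Bnip3, Ero1l, Ndrg1 and Adm, out of 32285 features listed in each of the matrices of the lactate experiment and the technique comparison and 35624 in the table of the AZD3965 experiment. All were primary cells of male C57BL/6 mice aged 6 months, washed from the peritoneal cavity and kept by adherence, and no cell carried a label of low oxygen, a transgene or a deletion. In the lactate experiment, 8 control cells were set beside 8 cells given 10 mM lactate for 72 h, all by scMeT-seq, in which a nano-capillary withdraws a little cytoplasm for mass spectrometry before the rest of the cell is lysed for RNA. In the AZD3965 experiment, 5 cells given lactate were set beside 5 given lactate and 300 nM AZD3965, an inhibitor of the lactate transporter MCT1. In the technique comparison, 4 lactate-treated cells sequenced by scMeT-seq were set beside 3 lactate-treated and 2 control cells sequenced whole, by SMART2-seq.

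HIF is a transcription factor of an alpha and a beta subunit. With oxygen present, prolyl hydroxylases mark HIF-1alpha for binding by the von Hippel-Lindau protein and for destruction, so that the pathway is set largely at the level of the protein and the Hif1a transcript is not a measure of its activity. When the alpha subunit persists it enters the nucleus with its partner, binds short motifs near its targets and raises genes of glucose uptake, glycolysis, vessel growth and mitochondrial turnover. In macrophages the pathway is known for supporting glycolysis at inflamed sites, and lactate is a product of that glycolysis.

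The labels do not tie cells to animals or cultures. Each of the 7 groups was therefore treated as 1 sample of its condition, with no test over cells. A group's level of a gene is its counts added over all cells of that group, as a share of the group's total count (summed CPM). The intervals are exact 95% intervals of counting error only, and they do not cover differences between cells or animals. They treat counts as independent. The counts come from PCR-amplified reads without molecular identifiers, so the intervals can be too narrow. A gene was called higher or lower in a comparison when the log2 ratio of summed CPM was at least 1 in size, which is 2-fold, among genes with 10 or more counts over both groups. Total counts per cell ran from 269393 to 459859 in the lactate experiment, from 58444 to 175450 in the AZD3965 experiment and from 494520 to 851417 in the technique comparison, so the AZD3965 cells carried the least precise values. Macrophage markers were present in every group, with all 18 listed genes counted in each. Summed fibroblast markers reached 10% or more of the macrophage markers in 4 cells, namely the control cells CTL30 (9142 CPM) and CTL32 (42809 CPM, against 1265 CPM of macrophage markers), the lactate cell Lactic29 (7265 CPM) and the lactate+AZD cell W14 (17064 CPM). CTL32 therefore went against its cell type label, and results are also given without these 4 cells where they bear on them.

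The starts of the genes are shown first, because HIF binds the core letters ACGTG or GCGTG and these members could be compared for them. RefSeq windows of the 250 bases before an annotated start (GRCm38.p6) were matched for 9 of the 10 members, and Ndrg1 had no entry. Both strands were searched, the core is in capitals, and a CACGTG holds ACGTG on each strand and was counted on both. The 5 windows below belong to Vegfa and Pdk1, the members that differed most between lactate and control, to Egln3 and Ero1l, which followed them, and to Bnip3, whose window held the most cores.
Vegfa (second start, chr17:46025164-46025413, minus strand): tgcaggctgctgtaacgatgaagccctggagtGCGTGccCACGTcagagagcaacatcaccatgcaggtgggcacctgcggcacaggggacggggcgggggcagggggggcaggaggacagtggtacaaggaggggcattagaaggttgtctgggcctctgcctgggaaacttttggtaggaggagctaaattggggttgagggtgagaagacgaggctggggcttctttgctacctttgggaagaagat
Pdk1 (first start, chr2:71872974-71873223, plus strand): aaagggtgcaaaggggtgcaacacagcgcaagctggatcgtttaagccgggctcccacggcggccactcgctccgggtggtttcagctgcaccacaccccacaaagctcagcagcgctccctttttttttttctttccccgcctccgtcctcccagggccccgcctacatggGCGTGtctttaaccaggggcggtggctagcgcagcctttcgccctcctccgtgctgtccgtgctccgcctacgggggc
Egln3 (chr12:54203875-54204124, minus strand): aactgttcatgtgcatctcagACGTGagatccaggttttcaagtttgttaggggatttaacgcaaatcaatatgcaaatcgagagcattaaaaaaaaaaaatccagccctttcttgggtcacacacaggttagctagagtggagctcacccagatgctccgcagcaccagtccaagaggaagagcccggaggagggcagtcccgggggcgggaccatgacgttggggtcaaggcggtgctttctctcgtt
Ero1l (chr14:45318573-45318822, minus strand): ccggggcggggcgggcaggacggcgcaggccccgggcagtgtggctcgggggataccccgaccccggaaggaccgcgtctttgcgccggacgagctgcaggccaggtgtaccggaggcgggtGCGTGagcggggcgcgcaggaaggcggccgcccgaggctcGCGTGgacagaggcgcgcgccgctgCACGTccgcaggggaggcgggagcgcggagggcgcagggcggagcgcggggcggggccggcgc
Bnip3 (chr7:138909507-138909756, minus strand): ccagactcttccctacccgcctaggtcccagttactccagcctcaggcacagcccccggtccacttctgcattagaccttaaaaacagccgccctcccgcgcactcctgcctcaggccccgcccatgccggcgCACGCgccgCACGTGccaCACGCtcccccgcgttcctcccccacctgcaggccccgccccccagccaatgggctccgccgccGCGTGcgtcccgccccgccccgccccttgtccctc
The Bnip3 window held 5 cores and the Ero1l window 3, while the Pdk1 window held 1, at position -78 from the start, and the Egln3 window 1, at -229. The printed Vegfa window lies inside the gene, before its second annotated start, and held 2. The window before the first Vegfa start and that before the second Pdk1 start held none of these letters. Each of the 9 matched members had a core in at least 1 window, which was 9 of 11 windows, against 38.6% of 32851 windows of the same length over all genes. These matches are letters in a window and not measured binding.

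The question of the first comparison was which transcripts differ in macrophages held in lactate. Vegfa and Pdk1 stood highest: Vegfa, the ligand that drives vessel growth, was 4.86-fold higher in lactate, and Pdk1, the kinase that inhibits pyruvate dehydrogenase and so limits the conversion of pyruvate to acetyl-CoA, was 6.25-fold higher. Ero1l, the oxidase that forms disulfide bonds in the endoplasmic reticulum, and Egln3, a prolyl hydroxylase that is itself a HIF target, lay just under the 2-fold line, and the other measured members lay between 0.10 and 0.53 on the log2 scale. Hif1a and Adm were listed at 0 in all 16 cells. Of the 8 members past the count filter, 2 were higher and 0 lower, where 15.1% of all 11506 genes compared were higher and 22% were lower. The median log2 ratio of the 8 was 0.75, against -0.09 over all genes.

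In the control cells Vegfa ran from 0 to 144 CPM with a median of 8.64 CPM, and in the lactate cells from 26.8 to 394 CPM with a median of 98.7 CPM. Vegfa counts were present in 5 of 8 control and 8 of 8 lactate cells, 5 control cells lay below every lactate cell and 3 lactate cells lay above every control cell, so the groups overlapped. Thinned to 269393 counts, 4.93 control and 8 lactate cells would be expected to show Vegfa. The summed level was 29.2 CPM (23.4 to 36.1, 86 counts) in control and 142 CPM (129 to 156, 432 counts) in lactate, a log2 ratio of 2.28 (1.94 to 2.63). The control cell CTL35 held 54.7% of the control counts. Without it the log2 ratio was 3.25, and without Lactic31 it was 1.98. Without the fibroblast-marker cells the log2 ratio was 2.08 (1.69 to 2.48).

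Pdk1 ran from 0 to 82.3 CPM in control, with a median of 1.15 CPM, and from 0 to 322 CPM in lactate, with a median of 130 CPM. Counts were present in 4 of 8 control and 7 of 8 lactate cells, and 6 lactate cells lay above every control cell, while Lactic31 had none. Lactic31, without Pdk1 counts, was the cell with the most Vegfa. The summed level was 22.4 CPM (17.3 to 28.5, 66 counts) in control and 140 CPM (127 to 154, 426 counts) in lactate, a log2 ratio of 2.64 (2.27 to 3.04). CTL28 held 56.1% of the control counts, and the log2 ratio was 3.59 without CTL28 and 2.37 without Lactic27. Without the fibroblast-marker cells it was 2.44 (2.04 to 2.85).

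**Figure D1:**
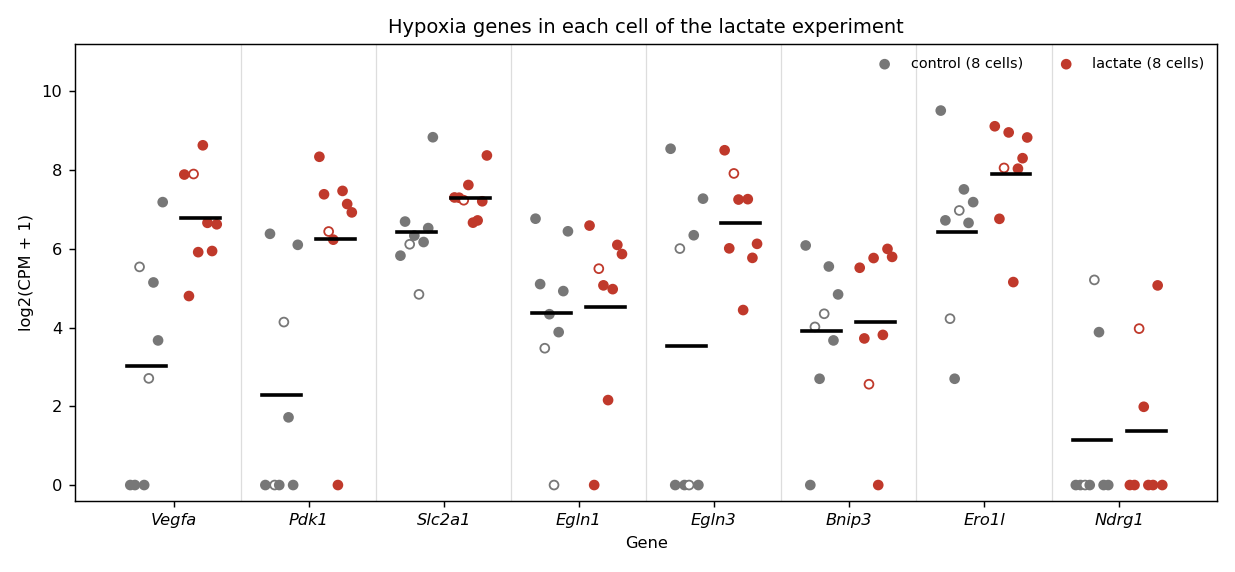
Log2(CPM + 1) of 8 hypoxia genes in each of 8 control and 8 lactate cells, with 1 point per cell, open points for the 3 cells with fibroblast markers over the limit, and bars for the mean of the plotted values. Vegfa counts were present in 8 of 8 lactate and 5 of 8 control cells, and 6 lactate cells lay above every control cell for Pdk1.

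Among the hydroxylases that sense oxygen, Egln3 ran from 0 to 371 CPM in control and from 20.8 to 361 CPM in lactate, with medians of 31.6 and 110 CPM. Counts were present in 4 of 8 control and 8 of 8 lactate cells, and the upper ends of the groups overlapped fully. The log2 ratio was 0.98 (0.74 to 1.22), 1.77 without the control cell CTL27 and 0.64 without Lactic27. Egln1, the main oxygen-dependent hydroxylase of HIF-1alpha, ran from 0 to 108 CPM in control and from 0 to 95.2 CPM in lactate, with a log2 ratio of 0.31 whose interval crossed 0 (-0.08 to 0.71). Without the fibroblast-marker cells Egln1 was at -0.07 (-0.48 to 0.34) and Egln3 at 0.56 (0.30 to 0.83).

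Ero1l ran from 5.49 to 728 CPM in control, with a median of 115 CPM, and from 34.6 to 552 CPM in lactate, with a median of 289 CPM. The groups overlapped, with the single highest value in the control cell CTL27 and 2 control cells below every lactate cell. The summed levels were 155 and 309 CPM and the log2 ratio was 0.99 (0.83 to 1.16). Without CTL27 it was 1.66, without CTL30 0.81, and without the fibroblast-marker cells 0.77 (0.60 to 0.94).

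Slc2a1, the glucose transporter GLUT1, was counted in all 16 cells, from 27.7 to 455 CPM in control and from 100 to 330 CPM in lactate, with medians of 75.3 and 153 CPM. In Slc2a1, 6 of 8 control cells lay below every lactate cell, yet CTL35 alone held 43.9% of the control counts. The log2 ratio was 0.53 (0.33 to 0.73) over all cells, 1.19 without CTL35 and 0.33 without Lactic34. Without the fibroblast-marker cells Slc2a1 was at 0.29 (0.07 to 0.50). Bnip3, a mitophagy receptor, had medians of 17.3 CPM in control and 28.9 CPM in lactate and a log2 ratio of 0.45 (-0.02 to 0.93). Ndrg1, a stress-response gene, was counted in 2 control and 3 lactate cells, with 19 and 21 counts, and its log2 ratio was 0.10 (-0.87 to 1.07). Both intervals included 0. Without the fibroblast-marker cells Bnip3 was at 0.51 (0.01 to 1.03) from 91 and 53 counts. Without them the Ndrg1 ratio became 1.05 (-0.39 to 2.71) from 15 and 6 counts, which made 3 members higher and 0 lower. Leaving out 1 cell moved Ndrg1 from -1.27 (without Lactic33) to 1.57 (without CTL32).

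The count of members higher by 2-fold turned on the cells and the scaling. Ero1l and Egln3 lay at the line, while Slc2a1 came to 1.19 without CTL35 and Ndrg1 to 1.57 without CTL32. The count was 4 under TMM scaling, and 4 when any 1 of Lactic28, Lactic31, CTL27, CTL33 or CTL35 was left out. Adm, the gene of the vasodilator peptide adrenomedullin, was listed at 0 in every cell of both matrices and is overlapped over 2160 bases by the antisense gene Gm28863, which was also at 0.

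For Hif1a a 0 could not be read as a low level. Hif1a was counted in all 10 cells of the AZD3965 table, yet it was listed at 0 in all 25 cells of both matrices. Of 1253 genes counted in all 10 of those cells and listed in both kinds of table, 28 (2.23%) were at 0 in all 25 matrix cells. Among them were B2m, the light chain of MHC class I, with 3401 counts in the AZD3965 table, Anxa1 with 1621, Txnip with 494 and the ribosomal gene Rpl35 with 342. Hif1a (chr12:73901375-73947530, plus strand, mm10) is overlapped over 46156 bases by the antisense gene Gm15283, which had 14 counts in the lactate experiment, and over 9878 bases by Gm49321 on the same strand, not listed in the tables used here. The library kit does not mark strand, and the part of these overlaps in the zeros was not tested. Hif1a is therefore described only in the AZD3965 experiment. Adm had 6 counts in 1 of the 10 AZD3965 cells, so its zeros in the matrices could not be checked in this way.

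Levels of different members were compared per kilobase of their exons, in the lactate experiment only. In the lactate cells the order of summed CPM per kb was Ero1l (58.4), Egln3 (52.8), Slc2a1 (47.1), Vegfa (33.2), Pdk1 (18), Bnip3 (13.5), Egln1 (11.6) and Ndrg1 (1.05). In the control cells it was Slc2a1 (32.7), Ero1l (29.4), Egln3 (26.8), Bnip3 (9.90), Egln1 (9.36), Vegfa (6.82), Pdk1 (2.88) and Ndrg1 (0.979). Vegfa and Pdk1 thus stood below Bnip3 and Egln1 in control and above both in lactate. The ranges over cells of neighbours in either order overlapped, and oligo(dT) priming can make the level depend on more than exon length.

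Members were also compared cell by cell. Over the 16 cells of the lactate experiment, the 21 pairs of the 7 members counted in at least 8 cells had a median Spearman rho of 0.44 (-0.03 to 0.76), and 20 pairs were above 0. The closest pairs were Egln3 with Ero1l (0.76), Bnip3 with Ero1l (0.74) and Egln1 with Ero1l (0.71), and these points share the depth of each library and the difference between conditions. Vegfa and Pdk1, the members that differed most between conditions, had a rho of 0.40 over all 16 cells, 0.10 within control and -0.21 within lactate. Each value within a condition rests on 8 cells, and in control Vegfa was at 0 in 3 cells and Pdk1 in 4. Whether they vary together within a condition cannot be told from so few cells. Bnip3 and Ero1l kept 0.83 within control and 0.69 within lactate. The nearest other genes were picked as the highest of 7803 values over 16 cells that pool both conditions, and none was tested. The nearest to Vegfa was Cxcl2 (0.86), a neutrophil chemokine, and the nearest to Pdk1 was Gsap (0.87). Slc2a1 was nearest to Gbe1 (0.87), the glycogen branching enzyme, Ero1l to Pnrc1 (0.93), Egln1 to Pnrc1 (0.79), Egln3 to Ly6i (0.83) and Bnip3 to Bcas2 (0.85), with the glycolytic enzyme Pgk1 (0.79) also among its nearest 3.

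The wider pathway gave a measure of what surrounds the members. The count of each list stands beside 15.1% of all genes higher and 22% lower. No such shares are given for the counts without the fibroblast-marker cells. Of 16 measured glycolytic targets 4 were higher in lactate and 0 lower, with a median log2 ratio of 0.44. These were Hk2, the inducible hexokinase (2.10), Pfkl, the liver type of phosphofructokinase (1.40), Pfkfb3, which makes the activator of that enzyme (1.23), and Tpi1, triose phosphate isomerase (1.01). The enzymes with the most counts differed less, at 0.38 for Eno1, 0.36 for Gapdh, 0.35 for Ldha and 0.32 for Pkm. Without the fibroblast-marker cells 3 of 16 were higher, since Tpi1 came to 0.997, and the others kept 1.96 for Hk2, 1.43 for Pfkl and 1.15 for Pfkfb3.

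Of 22 measured other targets 4 were higher and 3 lower, with a median of 0.23. Over all genes 15.1% were higher and 22% lower. Kdm3a, a histone demethylase, was at 1.13 and Hmox1, heme oxygenase, at 0.80, while Bnip3l (0.41), Fam162a (0.46) and P4ha1 (0.21), a collagen prolyl hydroxylase, lay under the line. Plod2, a collagen lysyl hydroxylase, was at -3.85. Fibroblast markers were lower as well, and 10 of 11 measured fibroblast markers were lower in lactate, with summed levels from 0 to 42809 CPM in control and from 0 to 7265 CPM in lactate cells, and Lum and Dpt at 0 in both groups. Without the 3 fibroblast-marker cells Plod2 was at -0.85 (-1.80 to 0.06) and Kdm3a at 1.23 (0.86 to 1.61), and 4 of 22 were higher and 1 lower.

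Of 12 measured genes of oxygen sensing and the HIF complex, 1 was higher and 1 lower, with a median of -0.23. They fall outside the naming rule and were named after their values were seen: Epas1, which encodes HIF-2alpha, was at 1.58 with 127 and 41 counts, and the hydroxylase Egln2 was at -1.68 with 41 and 127 counts. The acetyltransferases that HIF recruits lay apart, Ep300 at -0.79 and Crebbp at 0.49, and the ubiquitin ligase subunits Elob (-0.26), Eloc (-0.30) and Rbx1 (-0.24) lay close to the median of all genes. Without the fibroblast-marker cells 2 of 12 were higher. Of 15 measured paralogs and receptors 4 were higher and 4 lower, with a median of 0.08. The adrenomedullin receptor gene Calcrl was at 1.15, while the VEGF co-receptors Nrp1 and Nrp2 were at -0.36 and 0.30, the transporter Slc2a6 at 0.08 and Ndrg3 at -0.52. Without the fibroblast-marker cells 3 of 10 measured paralogs and receptors were higher and 1 lower. Calcrl then lay under the line at 0.97 (0.70 to 1.23), with Nrp1 at -0.67 and Nrp2 at -0.02.

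**Figure D2:**
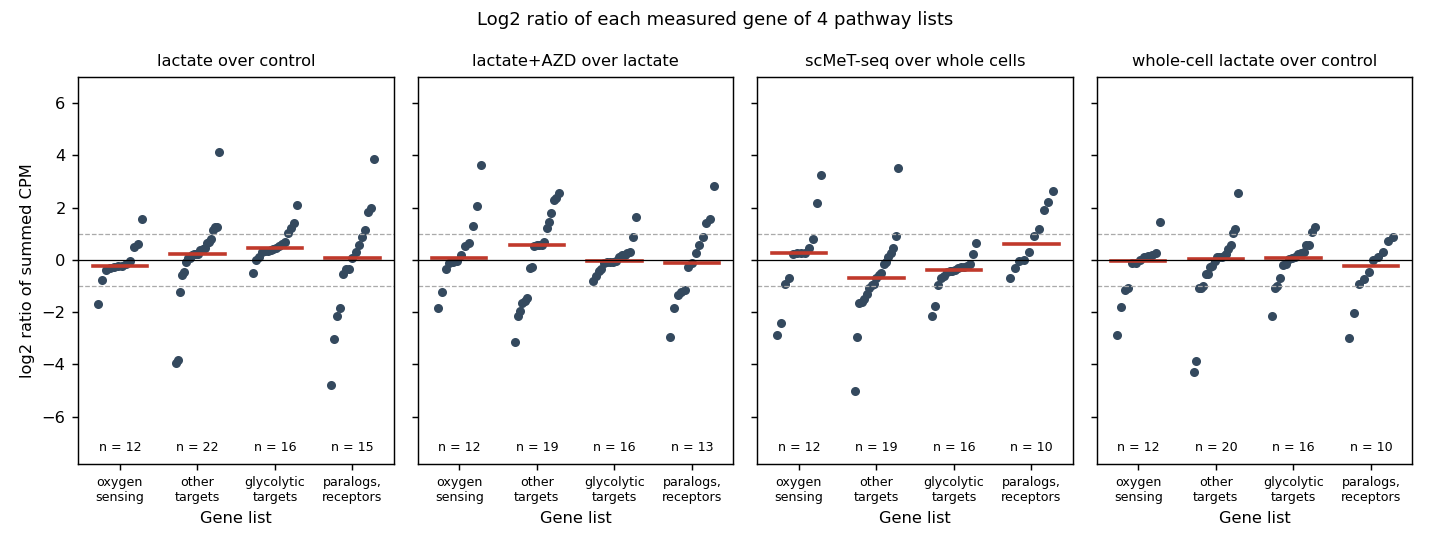
Log2 ratio of summed CPM for each measured gene of 4 pathway lists in the 4 comparisons, with 1 point per gene, red bars at the list median and dashed lines at 2-fold. In lactate over control the glycolytic targets had 4 genes above the upper line and 0 below the lower one, with a median of 0.44. Over all genes 15.1% were higher and 22% lower.

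The AZD3965 experiment asked how lactate-treated cells differ when the transporter is blocked. Hif1a, the gene of the alpha subunit, was 2.25-fold higher in lactate+AZD. Its log2 ratio of 1.17 came to 0.38 without the lactate+AZD cell W14 and to 1.81 without the lactate cell W5. Vegfa and Pdk1 were counted only in lactate+AZD, each with 10 counts. Egln1 was lower, with 2 counts against 27. Of the 9 members past the filter 3 were higher and 1 lower, where 24.9% of all 8764 genes compared were higher and 15.6% lower. The median of the 9 was 0.57, against 0.17 over all genes, and TMM scaling moved every ratio of this comparison by -0.16.

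Hif1a was counted in all 10 cells. In the lactate cells it was 37.7 CPM in T11, 154 in T13, 382 in W5, 24.7 in W20 and 210 in F18, and in the lactate+AZD cells 198 CPM in T10, 267 in W10, 771 in W14, 34.2 in F8 and 166 in F9. Only W14 lay above every lactate cell and the groups otherwise overlapped. The summed level was 148 CPM (122 to 179, 107 counts) in lactate and 334 CPM (288 to 384, 194 counts) in lactate+AZD, a log2 ratio of 1.17 (0.82 to 1.52). W14, the cell with fibroblast markers, held 56.2% of the lactate+AZD counts, and without it the log2 ratio was 0.38 (-0.05 to 0.80), an interval that includes 0. Without the lactate cell W5 it was 1.81. W5 held 47.7% of the lactate counts and 6587 CPM of fibroblast markers, under the limit. No ratio without both W14 and W5 is given here.

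Vegfa was at 0 in all 5 lactate cells, which allows up to 5.12 CPM, and had 6 counts in W10 and 4 in F9, or 40.1 and 44.3 CPM. Pdk1 was likewise at 0 in all 5 lactate cells and had 7 counts in W10 and 3 in W14, or 46.7 and 21.2 CPM. Against the floor of 3 counts over the group, each was 4.13-fold higher in lactate+AZD, on 2 of 5 cells. The interval of the log2 ratio of each gene reached down to 1.47. Both passed the count filter with no count to spare, so that without W10 neither did and without W14 Pdk1 did not.

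Egln1 ran over 12.6, 0, 67.4, 98.7 and 0 CPM in the lactate cells T11, T13, W5, W20 and F18 and was 14.1 CPM in W14 and 0 in the other lactate+AZD cells. The log2 ratio was -3.44 (-6.56 to -1.45). Egln3 was found in 1 cell of each group, W5 with 8 counts and W14 with 4, at a log2 ratio of -0.69 (-2.87 to 1.21).

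Slc2a1 was 195 CPM in T11, 148 in T13, 97.4 in W5, 444 in W20 and 188 in F18, and in lactate+AZD it was 368 CPM in T10, 407 in W10, 205 in W14, 0 in F8 and 243 in F9. The groups overlapped and the log2 ratio was 0.35 (0.03 to 0.68). F8 was the shallowest cell, with 58444 counts, and Hif1a was the only member it held. Bnip3 was counted in 3 cells of each group and had a log2 ratio of 0.84 (0.10 to 1.61), which was 0.23 without W10 and 2.13 without W5, the cell that held 66.7% of the lactate counts. Ero1l, listed in this table under its synonym Ero1a, had a log2 ratio of 0.57 (0.01 to 1.14), which was -0.50 without F9 and 2.04 without W20. Ndrg1 was counted in 2 cells of each group, at -0.35 (-0.997 to 0.27), and turned from -1.69 without F9 to 0.83 without T13. Adm had 6 counts, all in the lactate cell W20, and stayed below the filter.

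**Figure D3:**
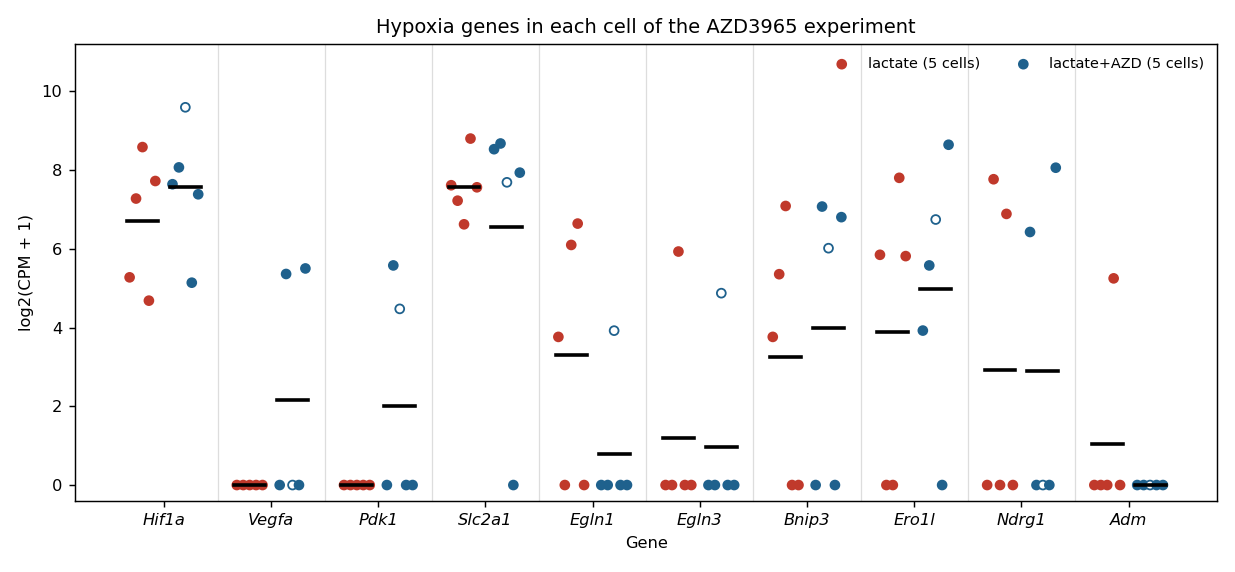
Log2(CPM + 1) of the 10 members in each of 5 lactate and 5 lactate+AZD cells, with 1 point per cell, an open point for W14 with fibroblast markers, and bars for the mean of the plotted values. Hif1a and Slc2a1 were found in nearly every cell and overlapped between groups, while Vegfa and Pdk1 were found in 2 lactate+AZD cells each and 0 lactate cells.

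Around the members, 3 of 12 measured oxygen-sensing genes were higher in lactate+AZD and 2 lower, with a median of 0.08. Beside this list and the others stand 24.9% of all genes higher and 15.6% lower. Epas1 was at 1.30 with counts in all 10 cells and at 1.57 (1.24 to 1.91) without W14. Vhl, the von Hippel-Lindau gene, had 30 counts in 2 lactate+AZD cells and none in lactate, and Crebbp was at -1.22. Of 16 glycolytic targets 1 was higher, Pfkp (1.66), and 0 were lower, with a median of -0.05. Pkm was at -0.42, Eno1 at -0.10, Aldoa at -0.13, Ldha at 0.28 and Pgk1 at -0.61.

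Of 19 other targets 6 were higher and 6 lower, with a median of 0.56. Hilpda, a lipid-droplet protein, was at 2.36 and at 2.15 (1.24 to 3.15) without W14. Kdm3a was at -1.94, the transferrin receptor Tfrc at -1.63 and Plod1 at -1.47, while Bnip3l (0.68), P4ha1 (0.56), Bhlhe40 (0.56) and Hmox1 (-0.32) lay within the lines. Of 13 paralogs and receptors 3 were higher and 5 lower, with a median of -0.10, among them Calcrl at -2.95, Slc2a6 at -1.35 and Nrp2 at -1.24. Markers of other cells moved with this comparison too: 6 of 8 measured fibroblast and 4 of 4 measured mesothelial markers were higher in lactate+AZD. This rested on W14: without it 0 of 5 measured fibroblast markers were higher and 5 lower, and 0 mesothelial markers were measured. Summed fibroblast markers ran from 0 to 6587 CPM in lactate and from 0 to 17064 CPM in lactate+AZD cells, mesothelial markers were 0 in every lactate cell and reached 2001 CPM in lactate+AZD, and Lum and Dpt, Msln and Krt19 were at 0 throughout. Both measured B cell markers were higher as well, and summed B cell markers were 0 in every lactate cell and reached 247 CPM, with 3 of 5 listed markers counted, in W10. W10 held 6 of the 10 Vegfa and 7 of the 10 Pdk1 counts, and the part of these markers in the results was not tested. Without W14, 2 of 10 oxygen-sensing genes were higher and 1 lower, and 4 of 18 other targets were higher and 7 lower. Of 16 glycolytic targets 1 was then higher and 1 lower, and of 10 paralogs and receptors 2 were higher and 5 lower. Shares over all genes without W14 are not given here.

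The technique comparison asked whether withdrawing cytoplasm first leaves the same transcripts. Of the members, 2 were lower in scMeT-seq than in whole lactate-treated cells, Bnip3 and Ero1l, and 0 were higher, of 7 past the filter. Over all 9723 genes compared 21.7% were higher and 20.6% lower. The median of the 7 was -0.81, against 0.02 over all genes. Of 18 macrophage markers 3 were higher and 0 lower by scMeT-seq, and 3 of 3 measured fibroblast markers were lower, with summed levels from 0 to 66.2 CPM by scMeT-seq and from 39.3 to 243 CPM in whole cells. Their part in the results was not tested.

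Ero1l was 83.2 CPM in Lactic13, 30.8 in Lactic14, 84.4 in Lactic16 and 38.3 in Lactic17 by scMeT-seq, and 121, 150 and 313 CPM in the whole cells Lactic5, Lactic6 and Lactic7. These cells did not overlap, and the log2 ratio was -1.75 (-2.04 to -1.47), or -1.20 without Lactic7. Bnip3 was 3.14, 11.5, 1.65 and 13.3 CPM by scMeT-seq and 36.4, 13.1 and 31.5 CPM in the whole cells. Its ranges met between Lactic17 and Lactic6, and the log2 ratio was -1.84 (-2.71 to -1.02) from 18 and 46 counts. With 4 cells against 3 the separation of Ero1l was not tested. The share of all compared genes that separate in the same way is not given here.

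Egln3 was at -0.83 (-1.15 to -0.50) and Egln1 at -0.81 (-1.58 to -0.05), with Egln1 at 0.03 without Lactic5 and Egln3 at -0.06 without Lactic6, which held 61.9% of the Egln3 counts of the whole cells. Pdk1 was at -0.10 (-0.50 to 0.30) and Slc2a1 at 0.32 (0.06 to 0.58). Vegfa had 24 counts by scMeT-seq, all in Lactic14, and 13 over the 3 whole cells, at 0.40 (-0.63 to 1.496) and at -2.26 without Lactic14. Ndrg1 had 9 counts in Lactic7 and none by scMeT-seq, and Adm had none. For the lists, the shares over all genes were 21.7% higher and 20.6% lower. Of 19 other targets 7 were lower and 1 higher, among them Kdm3a (-1.67), Bhlhe40 (-1.29) and P4ha1 (-1.06). Of 16 glycolytic targets 2 were lower, Aldoc (-2.15) and Pfkfb3 (-1.75), and 0 higher. Of 12 oxygen-sensing genes 2 were higher, with Epas1 at 2.17, and 2 lower, with Cul2 at -2.87, while 4 of 10 paralogs and receptors were higher, with Ndrg3 at 1.19, and 0 lower.

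The whole cells also held lactate and control, on 3 and 2 cells, and the 3 lactate cells are those already used against scMeT-seq. Ero1l was higher in lactate and Vegfa, Pdk1 and Egln1 lower, of 7 members past the filter. Over all 9732 genes compared 15.2% were higher and 27.6% lower. The median of the 7 was -0.82, against -0.20 over all genes, and TMM scaling moved every ratio by 0.19, which left 1 member lower. Of 18 macrophage markers 5 were lower and 0 higher in lactate, and 3 of 4 measured fibroblast markers were higher and 1 lower, with summed fibroblast markers from 39.3 to 243 CPM in lactate and from 8.91 to 30.5 CPM in control cells. Their part in the results was not tested.

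Vegfa was 8.09, 4.90 and 9.44 CPM in the lactate cells Lactic5, Lactic6 and Lactic7 and 58.7 and 0 CPM in the control cells CTL4 and CTL8. The log2 ratio of -2.25 (-3.25 to -1.34) therefore came from 1 control cell, and without CTL4 Vegfa was at 0.48. Pdk1 was 78.9, 63.7 and 26.7 CPM in lactate and 147 and 76.7 CPM in control. Its groups overlapped between Lactic5 and CTL8, and the log2 ratio of -1.13 (-1.50 to -0.75) came to -0.49 without CTL4. Egln1 was 42.5, 22.9 and 0 CPM in lactate and 58.7 and 12.5 CPM in control, at -1.01 (-1.66 to -0.37) and 0.69 without CTL4.

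Ero1l was 129 CPM in CTL4 and 41.0 CPM in CTL8, so that 2 of the 3 lactate cells lay above both and Lactic5 did not. The log2 ratio was 1.10 (0.80 to 1.40), 2.30 without CTL4 and 0.54 without Lactic7. Slc2a1 was at -0.66 (-0.93 to -0.38), Bnip3 at -0.82 (-1.40 to -0.26) and Egln3 at 0.34 (-0.01 to 0.69). Without CTL4, Bnip3 turned to 0.30, Egln3 came to 1.41 and Slc2a1 to -1.31, while Slc2a1 was at 0.02 without CTL8. For the lists, the shares over all genes were 15.2% higher and 27.6% lower. The glycolytic targets had 2 of 16 higher, Aldoc (1.26) and Hk1 (1.08), and 2 lower, Hk2 (-2.14) and Pfkfb3 (-1.07). Of 20 other targets 3 were higher, with Bhlhe40 at 1.17, and 4 lower, with P4ha2 at -1.09. Of 12 oxygen-sensing genes 1 was higher and 4 lower, with Epas1 at -1.81, Ep300 at -1.15 and Crebbp at -1.06. Of 10 paralogs and receptors 0 were higher and 2 lower, with Slc2a8 at -2.99.

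**Figure D4:**
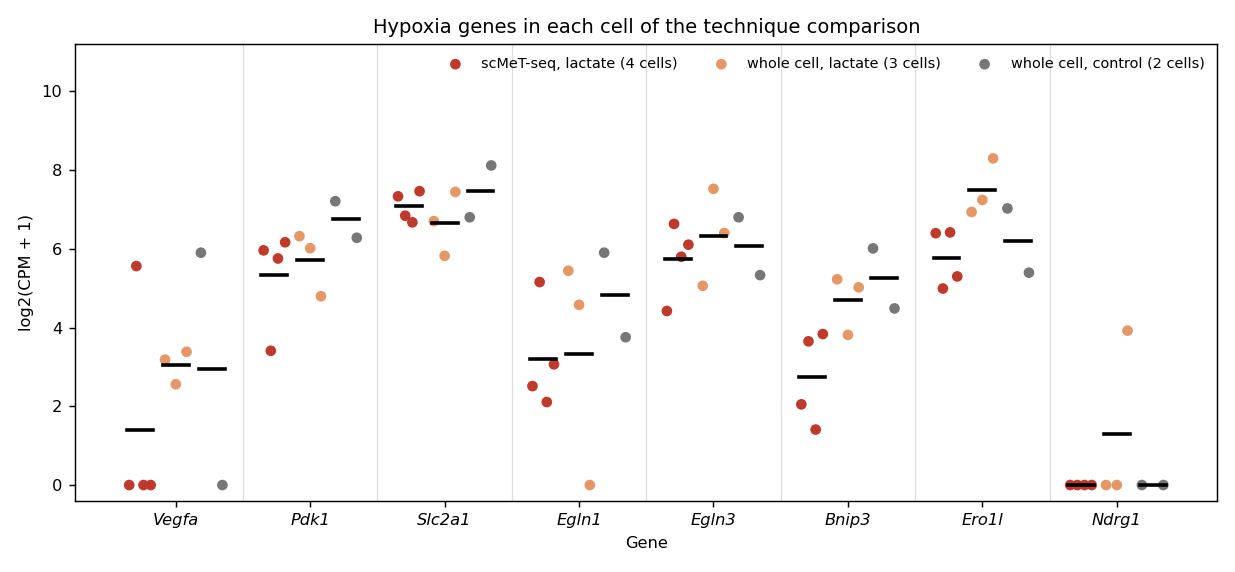
Log2(CPM + 1) of 8 hypoxia genes in 4 lactate cells by scMeT-seq, 3 whole lactate cells and 2 whole control cells, with 1 point per cell and bars for the mean of the plotted values. Ero1l lay lower in each scMeT-seq cell than in each whole lactate cell, which was not tested. Of 2 control cells, 1 held all Vegfa counts of its group.

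Ero1l was the member whose ratio of lactate to control had the same sign in both experiments that held the pair and was near or past 2-fold in each, at 0.99 and 1.10. Vegfa, at 2.28 among scMeT-seq cells and -2.25 among whole cells, and Pdk1, at 2.64 and -1.13, had opposite signs, and the difference between experiments was not tested. The levels of the lactate-treated groups, set across separately made tables, also lay apart. Vegfa was 142 CPM in the lactate experiment and at 0 in the AZD3965 experiment (up to 5.12 CPM). In the technique comparison it was 9.84 CPM in the scMeT-seq cells and 7.46 CPM in the whole cells. Pdk1 was 140 CPM, 0 (up to 5.12 CPM), 50.8 CPM and 54.5 CPM in the same order. Slc2a1 varied least, at 165, 221, 140 and 112 CPM, and Ero1l was at 309, 69.4, 59.8 and 201 CPM. Experiment, depth and table cannot be told apart in these values.

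**Figure D5:**
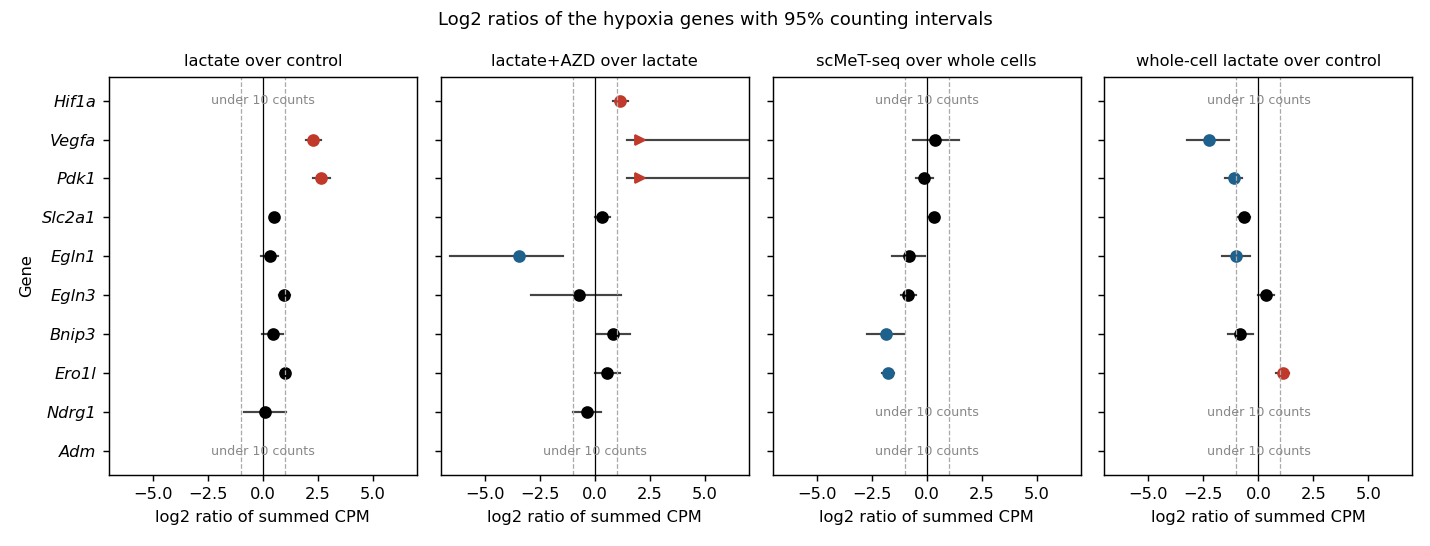
Log2 ratio of summed CPM of each member in the 4 comparisons, with lines for the 95% counting interval and dashed lines at 2-fold. Triangles are ratios against the floor of a group with no count. Red or blue marks higher or lower by at least 2-fold. Vegfa and Pdk1 lie at 2.28 and 2.64 in the first panel and at -2.25 and -1.13 in the last.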

How the data were processed

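Single-cell RNA of 35 cells was analysed in 7 groups, taken from the sample titles. Per the labels, cDNA was amplified by 20 cycles of PCR before tagmentation, with no molecular identifiers. According to the processing notes and methods, the authors trimmed reads with fastp 0.20.0, aligned them with HISAT2 2.1.0 to mm10 and derived the deposited counts with StringTie, which estimates counts from coverage. The AZD3965 table holds 6215 entries of 2 but 1914 entries of 1, so that a count there is not always 1 read.

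From these counts, sums per group, CPM, exact Poisson intervals and exact conditional binomial 95% intervals of log2 ratios were computed (Python 3.11.15, scipy 1.17.1), and TMM factors with edgeR 4.0.16. The interval code was tested on simulated data. Genes under 10 counts over both groups were left out of calls, and a group sum of 0 was set to 3 counts over the group. The pseudocount of 1 serves the plots only. No 2 cells of 1 table held identical values. Coordinates are those of GENCODE M21 (mm10), and exon length is the union of a gene's exons. The members and lists were chosen with earlier results of these data known. Named list genes are the 4 with the most counts and up to 4 with the largest ratios at 50 CPM or more, and for each member counted in at least 8 of 16 cells the nearest 3 genes by Spearman rho were found. A gene that this rule named is not reported here. Alternatives were TMM scaling, means of per-cell CPM, other filters, leaving out each cell, leaving out fibroblast-marker cells (for the pathway lists added after seeing the data) and the whole cells pooled over treatment.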

Additional observations from a re-analysis of the deposited data

Results flagged for a closer look

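Within groups of 4 to 10 cells, 16 of 40 sets of a member in a group held 1 cell far from the others by Dixon's criterion, which chance alone meets in about 1 of 20 sets of normally distributed values. CPM of single cells are skewed and hold many zeros, so the number of sets is a description and is not read against that rate. In control, CTL35 stood apart for Vegfa at 144 CPM and Slc2a1 at 455 CPM, CTL27 for Egln3 at 371 CPM and Ero1l at 728 CPM, and CTL32, the cell with few macrophage markers, for Ndrg1 at 36 CPM. In lactate, Lactic34 stood apart for Slc2a1 at 330 CPM and Lactic33 for Ndrg1 at 32.6 CPM. Among the lactate cells of the AZD3965 experiment, W20 stood apart for Slc2a1 at 444 CPM, Ero1l at 222 CPM and Adm at 37 CPM, and W5 for Egln3 at 60 CPM. Among the lactate+AZD cells, W14, with fibroblast markers, stood apart for Egln1 at 14.1 CPM and Egln3 at 28.3 CPM, and F9 for Ero1l at 398 CPM. Among the scMeT-seq cells of the technique comparison, Lactic14 stood apart for Vegfa at 46.2 CPM and Egln1 at 34.6 CPM. In 5 of these sets every other cell was at 0, where a single cell with counts meets the criterion.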

How the results depend on the processing

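No paired analysis was possible because the result comes from no test and shared cell numbers name no shared animal. Under the alternatives, 137 counts and medians of the members stayed close to their reported values and 34 did not. In lactate over control, 4 members were higher under TMM scaling and their median was 0.98 with a filter of 100 counts. Leaving out 1 cell gave 2 to 4 higher, 0 to 1 lower and a median of 0.59 to 1.22. In lactate+AZD over lactate, 2 were lower by means of per-cell CPM, 1 was higher and 0 lower with the filter of 100, and 1 was higher without W14. Leaving out 1 cell gave 1 (without W10 or W14) to 4 higher, 1 to 2 lower (2 without F9, T11, T13 or W20) and a median of -0.027 to 1.02. In scMeT-seq over whole cells, 1 was lower with the filter of 100 and 4 with all 5 whole cells. Leaving out 1 cell gave 2 to 5 lower (5 without Lactic14) and a median of -1.57 to 0.033 (without Lactic5). In whole-cell lactate over control, 1 was lower under TMM scaling, means or the filter of 100, and 2 were higher with no filter. Leaving out 1 cell gave 0 (without Lactic7 or CTL8) to 2 higher, 1 to 4 lower and a median of -1.27 to 0.48. Vegfa ran from -2.98 to 0.48, Egln1 from -1.85 to 0.69 and Bnip3 from -1.27 to 0.30, and all 3 changed sign without CTL4. The cause was not tested, except that filters change which genes enter. Members with few counts, such as Ndrg1 in lactate over control and Egln1 with AZD3965, had wide intervals. The part of depth in this was not tested.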
